A study of Mus musculus with 6 samples.

Results

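The genes that make melanin and furnish the melanosome were followed at every probe and on every array in B16-F1 and D5.1G4, a pair of mouse melanoma cell lines. They were the 10 genes Tyr, Tyrp1, Dct, Pmel, Mlana, Oca2, Slc45a2, Slc24a5, Gpr143 and Trpm1, of 20659 genes with a probe. They were chosen by name, with earlier results of these data known. Accessions printed on the array design gave them 14 of its 39429 probes, with 2 probes each for Tyr and Dct, 3 for Trpm1 and 1 for each of the other 7 genes. B16-F1 belongs to the widely used B16 melanoma, and the origin of D5.1G4 is not given in the labels used here. The labels of both lines give no treatment and the same culture, for 24 h in RPMI-1640 medium with 10% serum, from 1000000 cells per well up to a confluence of 75 to 95%. Neither line carried a transgene or other modification in its labels. Each line was measured on 3 one-colour Agilent arrays, and D5.1G4 is the reference line in the design given by the submitters.

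Melanin is made inside melanosomes, organelles of pigment cells that are related to lysosomes. Tyrosinase (Tyr) oxidises tyrosine in the step that limits the rate of synthesis, and its relatives Tyrp1 and Dct act on later intermediates of the black and brown pigment. Pmel forms the fibrils on which pigment is laid down, and Mlana is a small membrane protein that takes part in Pmel maturation. Oca2, Slc45a2 and Slc24a5 are melanosomal or nearby transport proteins that set the ion content and acidity in which tyrosinase works, Gpr143 is a receptor on the melanosome membrane, and Trpm1 is a cation channel. Most of these genes are direct targets of the transcription factor Mitf, and loss of several of them causes albinism.

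Mitf is known to bind the sequence CATGTG, and a longer form of it, the M-box, was first described in pigment enzyme promoters. The 3 enzyme promoters share a stretch around it, so the sequences that hold it are shown, with Slc24a5 and Trpm1 for comparison. RefSeq promoters of the GRCm38.p6 build, running from 250 bases before to 50 after a gene's start, were at hand for 6 of the 10 genes (Tyr, Tyrp1, Dct, Oca2, Slc24a5 and Trpm1), with 2 promoters for Trpm1. The longest stretch around CATGTG common to Tyr and Tyrp1 was AGTCATGTGCT, and that common to all 3 enzymes was GTCATGTGCT. Capitals mark the longer of these that is present, and otherwise TCATGTG or its reverse complement. The stretches lie at chr7:87493478-87493584 on the minus strand, chr4:80834116-80834222 on the plus strand, chr14:118052341-118052447 on the minus strand, chr2:125068064-125068170 on the plus strand and chr7:64153643-64153749 on the plus strand, each read in the direction of its gene.
Tyr: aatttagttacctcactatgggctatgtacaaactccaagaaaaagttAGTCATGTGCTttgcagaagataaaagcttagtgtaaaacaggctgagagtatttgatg
Tyrp1: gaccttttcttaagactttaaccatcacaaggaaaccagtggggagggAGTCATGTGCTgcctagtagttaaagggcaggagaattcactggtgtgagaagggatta
Dct: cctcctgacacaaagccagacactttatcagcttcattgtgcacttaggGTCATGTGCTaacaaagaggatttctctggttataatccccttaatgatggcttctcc
Slc24a5: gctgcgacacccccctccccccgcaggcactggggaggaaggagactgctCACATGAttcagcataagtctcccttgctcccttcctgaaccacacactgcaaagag
Trpm1: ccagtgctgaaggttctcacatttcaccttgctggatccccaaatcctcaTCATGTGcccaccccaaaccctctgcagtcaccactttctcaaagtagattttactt
AGTCATGTGCT lay 24 to 14 bases before the start of Tyr and 49 to 39 bases before that of Tyrp1. Dct held the shorter GTCATGTGCT, 152 to 143 bases before its start. On both strands, AGTCATGTGCT was found in 0.0213% of all 32851 promoters in the table, GTCATGTGCT, which it contains, in 0.186%, TCATGTG in 3.77% and CATGTG in 14.2%. TCATGTG was present in 5 of the 6 genes with a promoter, all but Oca2, and CATGTG in all 6. These matches are descriptions of the letters in these windows.

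Values are given as log2 levels relative to the 75th percentile of the array's spots, so 0 is the level of the 75th percentile and each unit is a doubling. That percentile ranged from 838.9 to 2034.6 intensity units over the arrays. Differences are B16-F1 minus D5.1G4. A gene was called at a Benjamini-Hochberg adjusted p of 0.05 or less over all genes tested, with at least a 2-fold difference, in the linear model of limma with n = 3 arrays in each line. The labels do not say whether the 3 samples of a line were separate cultures, so p-values measure the spread among these samples alone, which can be technical. Between 53.4% and 62.0% of an array's spots were well above background, and 0 spots were saturated. The arrays fell into 3 groups by scan time in the file headers: B16-F1 replicates 2 and 3 (scan 1), B16-F1 replicate 1 with D5.1G4 replicates 2 and 3 (scan 2), and D5.1G4 replicate 1 (scan 3). The arrays of scan 1 had the highest shares of spots well above background, 62.0% and 61.7%, so each difference was also taken within scan 2, where B16-F1 has a single array, replicate 1. Within scan 2 the median difference of all features was -0.15.

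Pigment gene transcripts were present in both lines. Slc45a2, Slc24a5 and Trpm1 were called higher in B16-F1 and 0 of 10 were called lower by limma. At an unadjusted p of 0.05 or less with no minimum fold, 5 were higher and 3 lower. The share of all features at that unadjusted p is not given here. Over all 18451 features tested 15.2% were called, with 6.29% of all features higher and 8.89% lower in B16-F1. At the adjusted p alone, with no minimum fold, Tyr and Gpr143 were also higher and Mlana was lower, so that 6 of 10 passed, 5 higher and 1 lower, where 34.9% of all features did, 14.5% higher and 20.4% lower. The 3 values of one line lay all above the 3 of the other in 7 of the 10 genes (5 higher and 2 lower in B16-F1) against 50.7% of the features with a value on all 6 arrays. The median log2 difference of the 10 genes was 0.20, and their median absolute difference was 0.73, against 0.00 and 0.43 over all features tested. In RNA of a whole culture, less transcript per cell cannot be told apart from fewer cells that hold it.

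**Figure D1:**
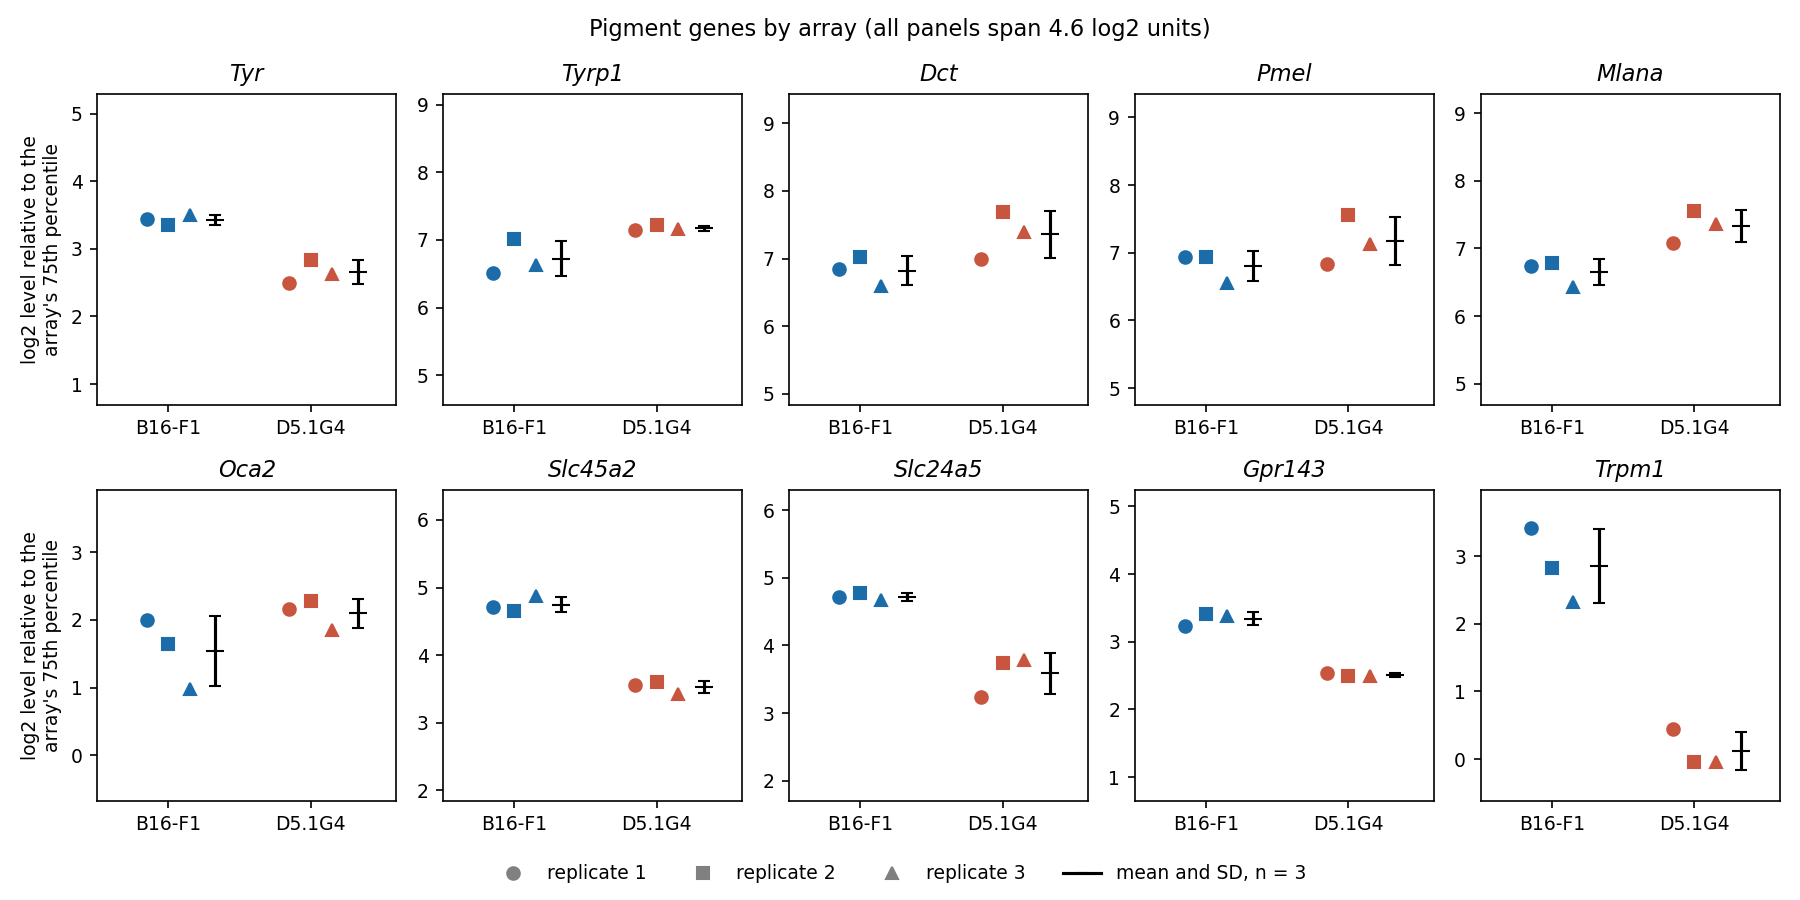
Levels of the 10 pigment genes on each array, as log2 relative to the array's 75th percentile, in B16-F1 (blue) and D5.1G4 (red), with the marker shape giving the replicate and the black bar the mean and SD of 3 arrays. The B16-F1 points of Tyr, Slc45a2, Slc24a5, Gpr143 and Trpm1 lie above all D5.1G4 points, those of Tyrp1 and Mlana lie below, and those of Dct, Pmel and Oca2 overlap.

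The labelled cell type, melanoma, was checked against melanocytic and other markers. All 9 melanocytic identity genes (Mitf, Sox10, Pax3, Pmel, Mlana, Tyr, Tyrp1, Dct and S100b) stood well above background on each of the 6 arrays. Pmel, Mlana, Tyr, Tyrp1 and Dct are themselves pigment genes of this report. S100b differed by -1.93 (adjusted p = 0.00039 in limma). Of 38 markers of fibroblasts, leukocytes, keratinocytes and endothelium, 37 had a probe. Of these 16 were not well above background on any array, among them Col3a1, Dcn, Pdgfra, Epcam, Krt8 and Cdh5. Others were well above background on all 6 arrays, among them Acta2, Csf1r, Cd3e, Krt5, Krt14, Trp63, Pecam1, Kdr, Eng and Egfl7. The summed level of the pigment genes was 459 to 577 times the array's 75th percentile in B16-F1 and 557 to 774 times in D5.1G4. Most of that sum came from Tyrp1, Dct, Pmel and Mlana, whose differences lay between -0.26 and 0.04 with quantile normalization. The summed level of the fibroblast list was 1.39 to 1.46 times in B16-F1 and 2.90 to 3.28 times in D5.1G4. Of that list Col1a2 and Pdgfrb were called lower (-3.74 and -3.33) and Col1a1 higher (1.73) in B16-F1, and the call of Pdgfrb was lost with normexp background correction of median signals (-1.92, adjusted p = 0.0592). In the leukocyte list Cd14, a receptor for bacterial lipopolysaccharide, exceeded its D5.1G4 level by at least 1.35-fold in the values as reported. No D5.1G4 array was well above background for Cd14 (adjusted p = 0.0304), and the call was lost under 8 alternatives. In the keratinocyte list Cdh1, the epithelial cadherin gene, was at least 2.42-fold lower in B16-F1 in the values as reported. No B16-F1 array was well above background for Cdh1 (adjusted p = 0.000681). The Cdh1 call was lost with that normexp correction (-0.33, adjusted p = 0.806) and with the authors' values (-1.65, 0.0899). The -0.33 is a smaller fall than the log2 of that bound. The summed level of the endothelial list was 9.18 to 10.5 in B16-F1 and 6.75 to 8.69 in D5.1G4. Those of the leukocyte and keratinocyte lists lay between 0.999 and 2.34 on every array. Any part of these other markers in the differences below was not tested.

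Tyrosinase, the enzyme that starts melanin synthesis, was higher in B16-F1. By the probe with the higher signal its level was 3.44, 3.35 and 3.49 for replicates 1, 2 and 3 of B16-F1, against 2.50, 2.84 and 2.62 for those of D5.1G4. The groups did not overlap, and the lowest B16-F1 value stood 0.51 above the highest D5.1G4 value, where the SD was 0.07 in B16-F1 and 0.17 in D5.1G4. The difference was 0.78 (SE 0.13, 95% interval 0.46 to 1.09, adjusted p = 0.00579 in limma), a 1.71-fold change that fell short of the minimum fold. The adjusted p rose to 0.0716 within scan 2, where the difference was 0.71, and ranged from 0.00108 to 0.095 over the alternatives.

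The second Tyr probe was printed at 10 spots on every array, which gives its own measure of error within an array. The SD over the 10 spots was between 0.06 and 0.10 log2 units on each of the 6 arrays, and all 10 spots were well above background on each. Its levels were -1.24, -1.53 and -0.47 in B16-F1 and -2.52, -2.75 and -2.88 in D5.1G4. No spot of a D5.1G4 array was as bright as any spot of a B16-F1 array: the highest D5.1G4 spot was at -2.31 and the lowest B16-F1 spot at -1.68. B16-F1 replicate 3 stood above the other B16-F1 arrays, with an SD of 0.55 over the 3 B16-F1 arrays.
The difference by this probe was 1.64 (SE 0.28), a 3.11-fold change called with an adjusted p of 0.00646 over all 22142 probes tested, of which 15.7% were called. Both Tyr probes gave the same direction and different sizes. The gap between their differences was -0.86 (SE 0.29) and missed the threshold (adjusted p = 0.0726 over 3685 pairs of probes of the same gene, of which 25.6% were called unequal). With the mean over both probes Tyr was called (1.21, adjusted p = 0.00398).

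Tyrp1 and Dct, which act after tyrosinase, were not called. Tyrp1, which has oxidase activity late in the pathway, was at 6.51, 7.02 and 6.64 in B16-F1 and 7.14, 7.21 and 7.16 in D5.1G4. All D5.1G4 values lay above all B16-F1 values, with 0.12 between the closest values. The difference was -0.45 (SE 0.16, 95% interval -0.83 to -0.07) with an adjusted p of 0.0722. Dct, dopachrome tautomerase, was at 6.85, 7.03 and 6.59 in B16-F1 and 6.99, 7.69 and 7.40 in D5.1G4 by its first probe, where the groups overlapped (-0.54, SE 0.21, adjusted p = 0.102). Its second probe gave 6.71, 7.12 and 6.71 against 6.98, 7.32 and 7.03, a difference of -0.26 (SE 0.17). The Dct probes did not differ from each other beyond their spread (-0.28, SE 0.16, adjusted p = 0.237). At the adjusted p alone Tyrp1 passed without B16-F1 replicate 2 (0.0296) and with normexp background correction of median spot signals (0.0436), an alternative that changed both the correction and the signal and is called normexp below, and Dct without D5.1G4 replicate 1 (0.0375). Neither gene was called under any alternative, and the intervals include changes up to 1.77-fold for Tyrp1 and 2.08-fold for Dct in the direction of D5.1G4. Within scan 2 the differences were -0.67 for Tyrp1 and -0.69 for Dct by its first probe.

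The fibril protein gene Pmel did not differ beyond the spread between arrays. It was at 6.93, 6.94 and 6.55 in B16-F1 and 6.84, 7.55 and 7.14 in D5.1G4, with overlapping groups (-0.37, SE 0.22, adjusted p = 0.245). The Pmel difference was -0.41 within scan 2. Mlana was at 6.74, 6.78 and 6.43 in B16-F1 and 7.09, 7.55 and 7.36 in D5.1G4. Each D5.1G4 value exceeded each B16-F1 value, and the difference of -0.68 (SE 0.17, adjusted p = 0.0247) corresponds to a level 1.60-fold higher in D5.1G4, under the minimum fold. The adjusted p exceeded 0.05 when B16-F1 replicate 3 (0.0735), D5.1G4 replicate 2 (0.0745) or D5.1G4 replicate 3 (0.0779) was left out, within scan 2 (0.0665), with scan as a block (0.0915), with the replicate block (0.0654) and with quantile normalization (0.105), and it ranged from 0.0144 to 0.203 over the alternatives.

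The 4 genes Tyrp1, Dct, Pmel and Mlana gave spots of 124400 to 258331 intensity units at their probes, up to 33.2% of the scanner's saturation value. For these genes the size of the difference, and for Pmel its sign, changed with the scaling. With quantile normalization, which gives all arrays one distribution, their differences were -0.03, -0.10, 0.04 and -0.26, and the authors' processed values gave the same 4 numbers. The authors' 6 columns have medians of 9.71 and the same maximum of 17.96, and rank the probes of each array as the scanner signal does (Spearman 1.0000), so they may not be a separate alternative. Their scale is log2 and they are not centred on 0. Centring arrays on the median instead gave the 4 genes differences of -0.48, -0.57, -0.40 and -0.71. The differences of Tyr, Slc45a2, Slc24a5, Gpr143 and Trpm1 were 0.87, 1.37, 1.30, 0.92 and 2.77 with quantile normalization, each somewhat larger than the value reported. None of these scalings moved the median difference of all features by more than 0.03.

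**Figure D2:**
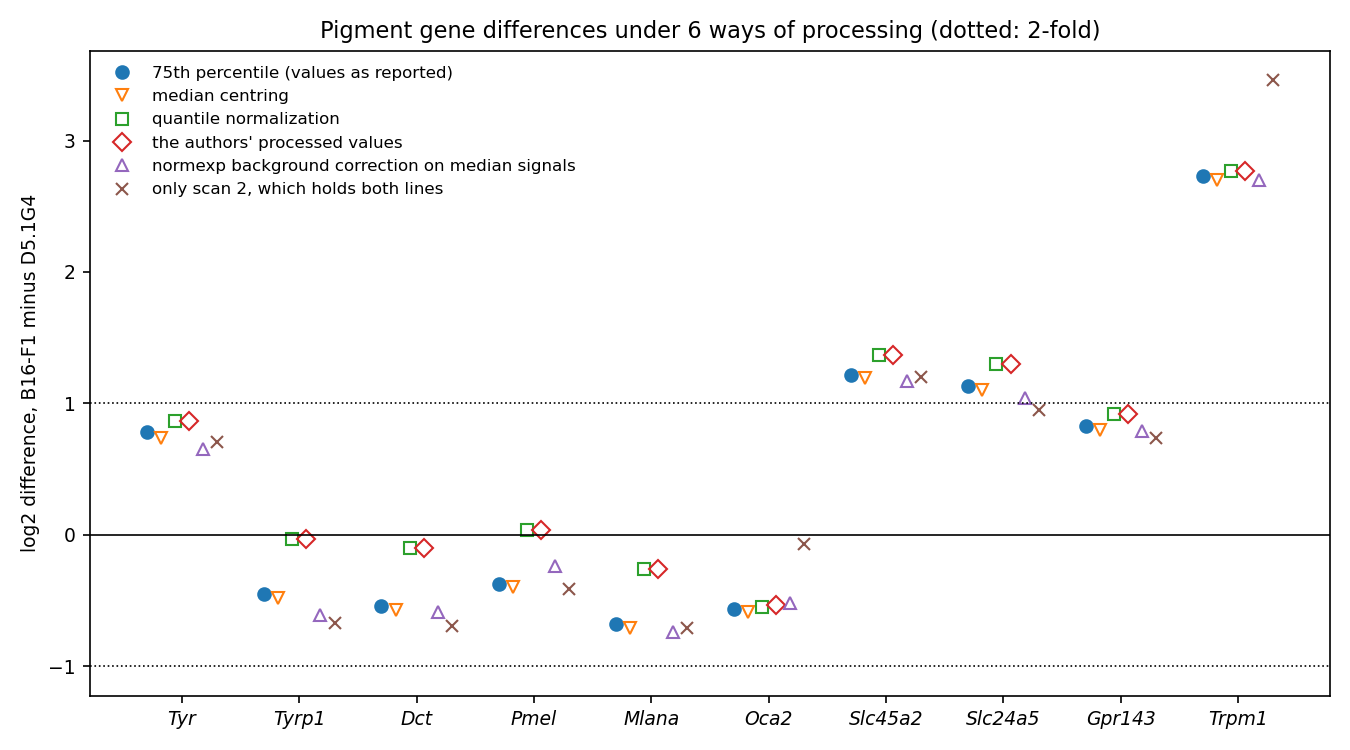
Difference between the lines (log2, B16-F1 minus D5.1G4) of each pigment gene under 6 ways of processing, with dotted lines at a 2-fold change. The 5 genes above 0 stay above it under each way shown, while Tyrp1, Dct, Pmel and Mlana move to between -0.26 and 0.04 with quantile normalization and the authors' values.

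The melanosomal transporter genes divided between higher and not called. Slc45a2, a transporter whose loss causes a form of albinism, was at 4.71, 4.66 and 4.87 in B16-F1 and 3.56, 3.60 and 3.42 in D5.1G4. The groups were far apart for their spread (SD 0.11 and 0.09), and the difference was 1.22 (SE 0.12, adjusted p = 0.000779), a 2.33-fold rise with a 95% interval of 1.91 to 2.84. Slc45a2 was called under all 20 alternatives, with differences of 1.16 to 1.37. Slc24a5, a sodium, potassium and calcium exchanger, was at 4.71, 4.77 and 4.67 in B16-F1 and 3.24, 3.74 and 3.78 in D5.1G4. D5.1G4 replicate 1, the array scanned alone, was the lowest. The difference was 1.13 (SE 0.17, adjusted p = 0.00415), a 2.19-fold rise with an interval of 1.64 to 2.93. Without D5.1G4 replicate 1 it was 0.95, as it was within scan 2, so the gene then fell short of the minimum fold, while the adjusted p remained below 0.05 (0.00414 and 0.0324) and reached 0.0783 without the arrays of scan 1.

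Oca2, the product of the pink-eyed dilution locus and a regulator of melanosome acidity, was not called. Its levels were 1.99, 1.64 and 0.98 in B16-F1 and 2.16, 2.28 and 1.85 in D5.1G4. The groups overlapped and B16-F1 replicate 3 was the lowest (SD 0.51 in B16-F1 and 0.22 in D5.1G4). The difference was -0.56 (SE 0.28, adjusted p = 0.174), with an interval from -1.23 to 0.12, and it was -0.07 within scan 2 and -0.28 without B16-F1 replicate 3.

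Gpr143, the receptor affected in ocular albinism, was at 3.24, 3.41 and 3.38 in B16-F1 and 2.54, 2.50 and 2.49 in D5.1G4. The groups did not overlap, with an SD of 0.09 in B16-F1 and 0.03 in D5.1G4. The difference was 0.83 (SE 0.11, adjusted p = 0.00213), a 1.78-fold change with an interval of 1.49 to 2.13, and was not called because of the minimum fold. The adjusted p exceeded 0.05 only without the arrays of scan 1 (0.0736) among the 20 alternatives.

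Trpm1, the melastatin gene, showed the widest difference of the 10 genes and the widest disagreement between probes. The probe that stands for it, designed to the transcript NM_018752, was at 3.42, 2.83 and 2.31 in B16-F1 and 0.45, -0.04 and -0.05 in D5.1G4. Every B16-F1 array exceeded every D5.1G4 array by at least 1.87, with an SD of 0.55 in B16-F1 and 0.28 in D5.1G4. The difference was 2.73 (SE 0.30, adjusted p = 0.00133), a 6.65-fold rise with an interval of 3.99 to 11.1, and it was 3.46 within scan 2. It was called under all 20 alternatives, with the mean over the 3 probes giving the lowest value, 1.06.
The other 2 probes were designed to the transcript NM_001039104 and were dim. One, A_55_P2037997, had intensities of 156, 89.7 and 87.3 in B16-F1 and 48.0, 29.7 and 36.7 in D5.1G4 and was not well above background on D5.1G4 replicate 1. Its log2 values gave a difference of 1.05 (SE 0.35, adjusted p = 0.0605 over probes). The other, A_55_P2043782, had intensities of 40.2, 27.4 and 88.5 against 106, 33.5 and 36.0, was not well above background on B16-F1 replicate 2, and gave -0.60 (SE 0.32, adjusted p = 0.197).
The difference by the first probe exceeded that by A_55_P2037997 by 1.68 (SE 0.29, adjusted p = 0.0123) and that by A_55_P2043782 by 3.33 (SE 0.46, adjusted p = 0.00688), so 2 of the 4 probe pairs of the pigment genes were called unequal. Within scan 2 these gaps were 1.89 and 3.92 with adjusted p values of 0.0852 and 0.0709, and with normexp they were 2.06 and 2.65 (0.0979 and 0.0758), so that both calls were lost there. The call for A_55_P2037997 was also lost without the arrays of scan 1 (1.56, adjusted p = 0.173) and with the replicate block (1.68, 0.0506), and that for A_55_P2043782 with scan as a block (3.92, 0.0762). Probe sequences were not used here, so the stretch of the transcripts that each probe covers was not analysed.

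**Figure D3:**
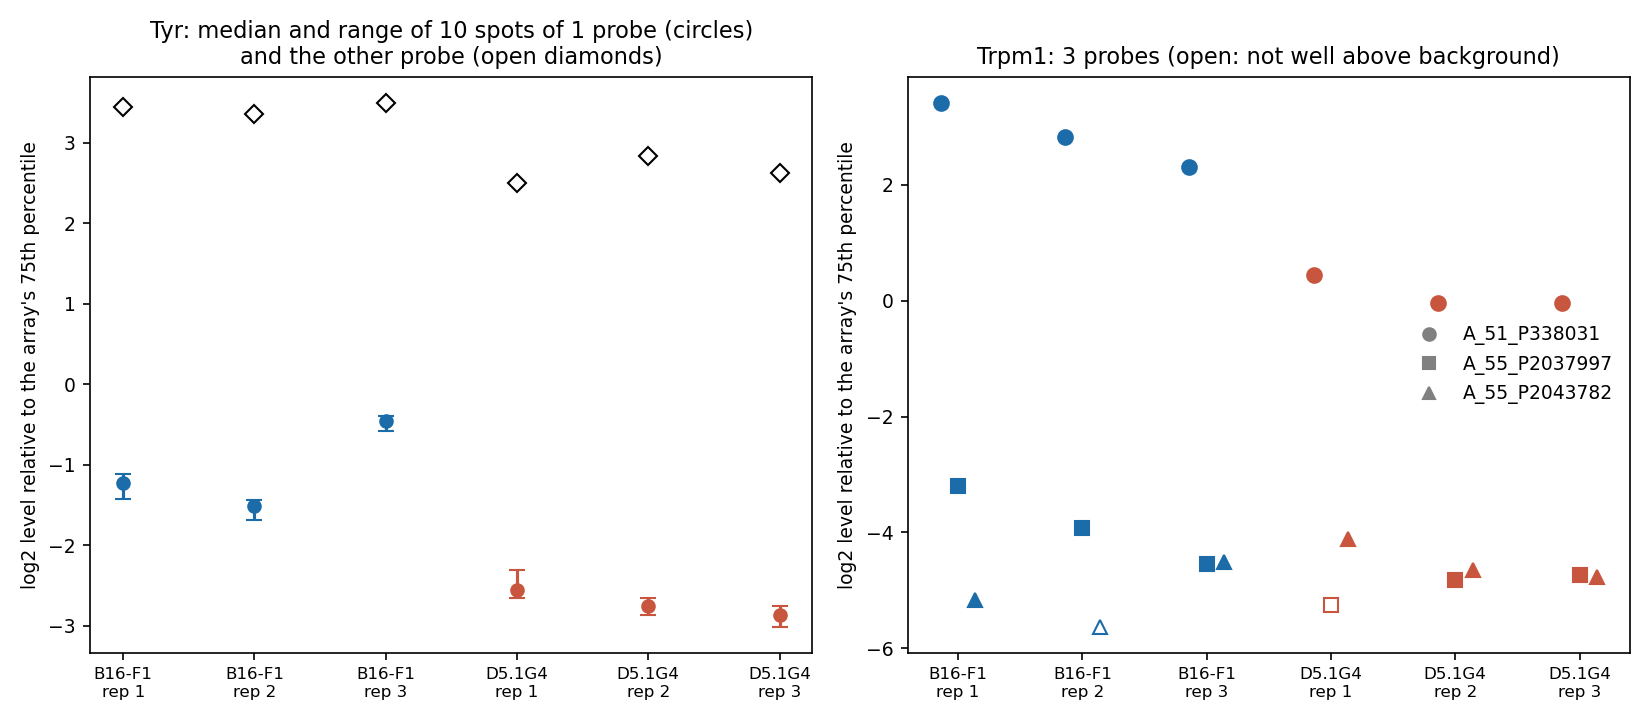
Levels on each array (log2 relative to the 75th percentile) of the Tyr probes, with circles and bars for the median and range of the 10 spots of one probe and open diamonds for the other probe, and of the 3 Trpm1 probes, with open symbols where the probe was not well above background. Both Tyr probes are higher on all B16-F1 arrays (blue) than on all D5.1G4 arrays (red), while of the Trpm1 probes the brightest and A_55_P2037997 are and A_55_P2043782 is not.

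By probe, 4 of the 14 were called, all higher in B16-F1, where 7.02% of all probes tested were called higher and 8.69% lower: the 10-spot Tyr probe and the probes of Slc45a2, Slc24a5 and the NM_018752 transcript of Trpm1. At the adjusted p alone 7 of 14 passed, 6 higher and 1 lower, against 35.5% of all probes, 15.8% higher and 19.7% lower. Of the 14 probes 12 were well above background on all 6 arrays, and the other 2 were the dim Trpm1 probes. The genes whose pattern over the 6 arrays was most like that of Trpm1 were Vopp1, Dennd6a and Eif5, with Pearson correlations of 0.998, 0.997 and 0.997 over 6 arrays. As 153 of 12065 named genes passed 0.98, a value that the difference between the lines largely sets, this describes likeness only.

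**Figure D4:**
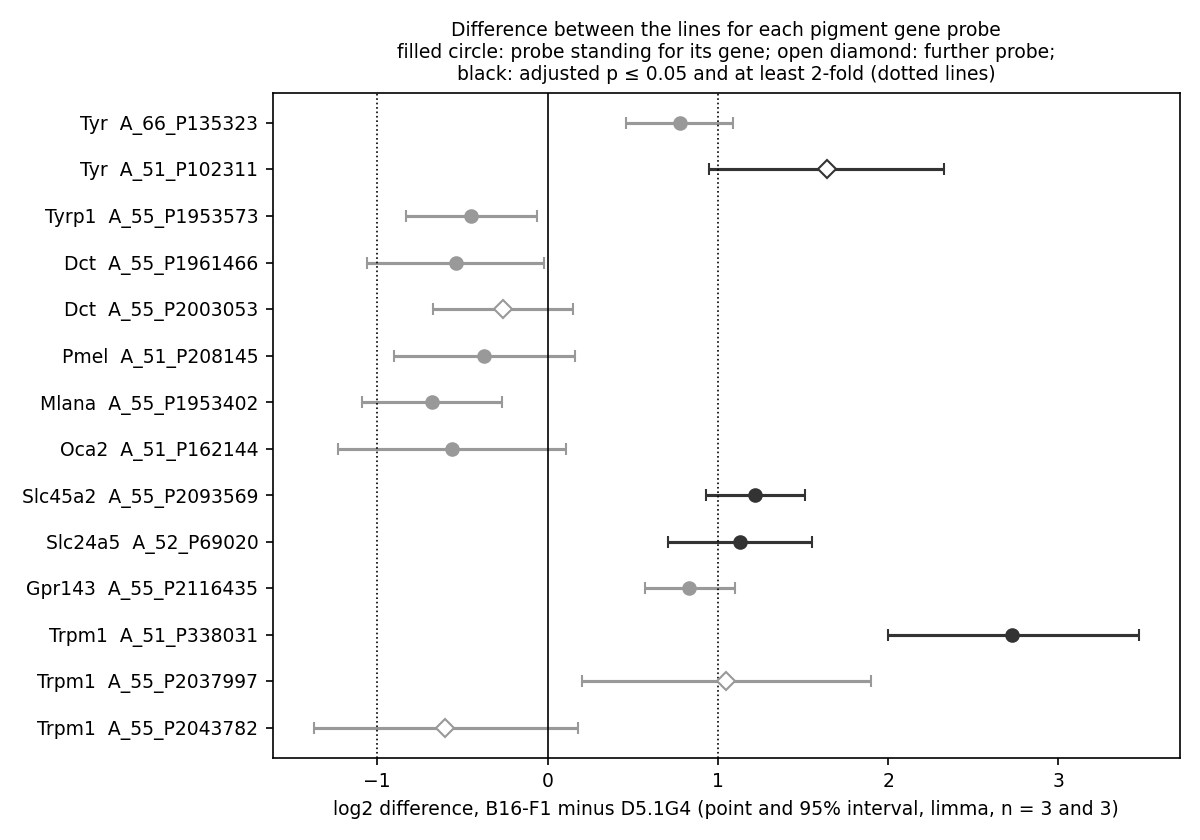
Difference between the lines (log2, B16-F1 minus D5.1G4) with its 95% interval for each of the 14 probes, with filled circles for the probe that stands for its gene, open diamonds for further probes and black for calls. The 4 called probes lie to the right of the dotted line at a 2-fold rise, and no probe lies beyond the line at a 2-fold fall.

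Among 17 tested regulators upstream of the pigment genes 3 were called higher and 2 lower in limma, 29.4% against the 15.2% of all features, and 12 were not called (median difference -0.11). This list and those below were chosen with earlier results of these data known, so their shares describe the lists only. Mitf, the master regulator of the pigment genes, differed by 0.36 (SE 0.14, adjusted p = 0.0958) and by 0.64 at another probe. At the adjusted p alone Mitf passed with quantile normalization (0.57, 0.0138) and with the authors' values (0.58, 0.0131), and it was called under no alternative. Sox10, which acts upstream of Mitf, differed by 0.15 (SE 0.15, adjusted p = 0.464). The stem cell factor receptor gene Kit exceeded its D5.1G4 level by at least 5.06-fold in the values as reported, with no D5.1G4 array well above background. Its fitted difference was 4.58 and became 2.02 with normexp, which is below the log2 of that bound (adjusted p = 0.0404). The melanocortin receptor gene Mc1r rose by 1.11 (SE 0.13), and Pax3 fell by 1.30 (adjusted p = 0.000668), with -0.78 at another probe (adjusted p = 0.0864 over probes). Usf1, which binds E-box elements and is linked to the tanning response, exceeded its D5.1G4 level by at least 3.32-fold in the values as reported. This bound was taken because no D5.1G4 array had its probe well above background (adjusted p = 0.00541). The fitted Usf1 difference of 2.02 became 1.07 with normexp (adjusted p = 0.188) and 1.49 without the arrays of scan 1 (0.0932), where the call was lost. Both values are below the log2 of that bound. Ppargc1a, a coactivator that can raise Mitf transcription, fell by 2.89 (SE 0.26, adjusted p = 0.000661) and by 2.27 with normexp, with -2.75 at another probe.

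Genes for other melanosome membrane proteins and pigment chemistry numbered 17 tested, of which 5 (29.4%) were called higher and 0 lower (median difference -0.03), against 6.29% and 8.89% of all features. Atp7a, which supplies tyrosinase with copper, rose by 1.10 (SE 0.11, adjusted p = 0.000837). Slc7a11, the cystine transporter that feeds the red and yellow pigment, rose by 1.57 (SE 0.21, adjusted p = 0.00246), and the lysosomal chloride transporter gene Clcn7 by 1.29 (SE 0.13). Slc24a4, a relative of Slc24a5, was at least 4.10-fold higher in the values as reported, with no D5.1G4 array well above background. The channel gene Mcoln3 rose by 2.43 (SE 0.33, with 2 of 3 D5.1G4 arrays well above background). The calls of Slc24a4 and Mcoln3 were lost with normexp (1.24 and 1.45, from 2.55 and 2.43, with adjusted p = 0.0946 and 0.0693). The 1.24 of Slc24a4 is below the log2 of its bound. At an unadjusted p of 0.05 or less in limma, with no minimum fold, 5 genes of this list were higher and 2 lower. The lower ones were Slc36a1 (-0.59) and Bace2 (-0.58), with other probes at 0.20 and 0.84. The shares of all features at that unadjusted p are not given here. They are at least the 14.5% higher and 20.4% lower at the adjusted p alone.

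The machinery that builds and carries melanosomes had 26 genes tested, of which 2 (7.69%) were called higher and 0 lower (median difference 0.15), a share of higher calls near the 6.29% of all features. At an unadjusted p of 0.05 or less in limma, with no minimum fold, 9 genes were higher and 1 was lower, the small GTPase gene Rab38 (-0.58). The shares of all features at that unadjusted p are not given here. They are at least the 14.5% higher and 20.4% lower at the adjusted p alone. The genes called were Rabggta, which attaches lipid to Rab proteins (1.25, SE 0.16, adjusted p = 0.0019), and Pikfyve, a lipid kinase of endosomes (1.24, SE 0.18, adjusted p = 0.00338). Both calls were lost with normexp (1.05 with adjusted p = 0.0632, and 0.98), and that of Pikfyve also with the mean over its probes (0.97) and without the arrays of scan 1 (1.07, adjusted p = 0.0785). Myo5a and Mlph, the motor and adaptor that carry melanosomes, differed by -0.01 and -0.26, and Rab27a, their membrane anchor, by 1.49 with an SE of 0.62 (adjusted p = 0.117).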

How the data were processed

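Total RNA was labelled with Cy3 and hybridised to 6 arrays, per the labels' protocols. The deposited scanner files hold spot intensity values made with Agilent Feature Extraction 11.0.1.1, with background subtracted and trends within the array removed, and array annotation on mm9, per the file headers. They also hold other values, deposited as flags of 0 or 1 for each spot. The authors' processed table holds log2 values, with the normalization steps not given in the sources used here.

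Per array, log2 of the processed intensity minus its 75th percentile was taken, spots marked as outliers were left out, and spots of a probe were averaged. A probe counted as well above background where over 0.5 of its spots did. Accessions were matched to RefSeq symbols (27234 of 39429 probes), and the probe with the highest mean stood for a gene. Features well above background on at least 3 of 6 arrays were tested with limma 3.58.1 under R 4.3.3 in a model with a single term, the line, on genes, on probes and on differences between probes of a gene. The fit was tested on simulated data. A bound for a gene not above background in a line uses the lowest signal well above background on each array, or the gene's own value where that is higher. It holds for the values as reported only. Spots not well above background can lie above that lowest signal, and with normexp the differences of Kit, Usf1, Slc24a4 and Cdh1 fell short of their bounds. Alternatives changed the scaling, background correction, filter, probe rule, scan and replicate blocks, and left out each array. The members and lists were chosen with earlier results of these data known. The rule named all 10 pigment genes, Mitf, Sox10, Pax3 and up to 4 called members of each other list with the largest differences. Other genes were named after their values were seen. The number of arrays limits precision. Normexp used median spot signals, chosen after seeing the data.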

Additional observations from a re-analysis of the deposited data

How the results depend on the processing

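Of the values of the 10 pigment genes under 20 alternatives, 193 of 200 kept their direction and their side of the call. These are not 200 separate checks. The mean over probes leaves the differences of the 7 genes with 1 probe as they were, and keeping outlier spots changed none of the 10. Changes in size are not counted, such as Tyrp1 at -0.45 as reported and -0.03 with quantile normalization. Pmel turned to 0.04 with quantile normalization and with the authors' processed values, and the cause was not tested. Slc24a5 lost its call under 4 alternatives and Tyr gained one with the mean over its probes. Normexp on median signals, which changed both the correction and the signal, gave 1251 features called in place of 2800. The pigment probe pairs called unequal, 2 as reported, numbered 0 with normexp, 0 within scan 2 and 0 with probes well above background on all 6 arrays, where the Trpm1 pairs are no longer tested. They numbered 1 with scan as a block, 1 without the arrays of scan 1 and 1 with the replicate block. Leaving out each array in turn gave 2531 to 3379 features, 2 to 3 pigment genes called higher, 0 lower, 3 to 5 probes and 2 pairs. Normexp was run on median signals, and normexp on mean signals was not run. With the replicate block 2585 features, 3 pigment genes higher, 0 lower and 4 probes were called. Deviations of samples with the same number correlated at -0.39, -0.03 and -0.30, and none of these pairs shared a scan. The pairs that did, B16-F1 replicate 1 with D5.1G4 replicates 2 and 3, correlated at 0.19 and 0.31. The check therefore cannot tell whether the numbers pair the samples. Within scan 2 and without scan 1, B16-F1 replicate 1 is assumed to vary like D5.1G4. Within scan 2, with scan as a block and without scan 1 the median of all features was -0.15.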

Other observations

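Unequal probes also occurred among other pigment cell genes. Of 18 probe pairs from the lists of regulators, melanosome machinery and other melanosome genes, 4 (22.2%) had unequal differences between the lines at an adjusted p of 0.05 or less in limma, against 25.6% of all probe pairs. Bace2, a protease that cleaves Pmel, gave -0.58 at one probe and 0.84 at the other (adjusted p = 0.0241 and 0.00543 over probes), and the difference between them was -1.46 (SE 0.19, adjusted p = 0.00796). Creb1, the factor that answers cyclic AMP, gave -0.56 and 0.82, the latter above background on 3 of 6 arrays (adjusted p = 0.0247 for the pair). Tfap2a, a partner of Mitf at pigment gene enhancers, gave -0.11 and -1.21 at probes for different transcripts (0.0367), and Vps18, of the endosomal tethering complex, 0.07 and 0.67 (0.0307). The probes of Ppargc1a gave -2.89 and -2.75, with no call of a difference between them (-0.13, SE 0.14, adjusted p = 0.521).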
